A study of Homo sapiens with 6 samples.

Results

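OAS and IFIT genes are effectors of the interferon response, and 8 of them were examined here in Hep3B cells: OAS1, OAS2, OAS3, OASL, IFIT1, IFIT2, IFIT3 and IFIT5. They were taken by symbol from tables of 23228 genes, and 6 of the 8 passed the filter on low reads. They were selected on measured values, their reads in both groups being known, so the differences between the groups are given for them as a description, with no test.

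The OAS enzymes sense double-stranded RNA and make short 2′-5′-linked chains of adenosine, which act as a second messenger of the antiviral response. The IFIT proteins bind RNA that lacks the marks of a host mRNA and hold back its translation. Genes of both families are switched on when type I or type III interferon, through JAK kinases, brings STAT2 and IRF9 to a short promoter sequence called the interferon-stimulated response element (ISRE).

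Hep3B, an established line of hepatocellular carcinoma cells, gave 3 control libraries, from cells given lentivirus with a non-targeting shRNA (a short hairpin RNA that directs the breakdown of a matching mRNA). The 3 libraries labelled PELP1-KD, here called PELP1-KD libraries after that label, came from cells given lentivirus with an shRNA against PELP1. Cells grew in RPMI medium, and the PELP1-KD cells were selected with puromycin and kept as pooled stable clones. The titles name the first PELP1 shRNA while the protocol names both of the study's hairpins, and nothing says that the replicates were separate cultures, so p-values measure only the spread between these libraries, which may be technical.

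Reads on genes numbered 26758363 to 34456542 in a library. PELP1, the targeted gene, had 4893, 4914 and 5102 normalized reads (reads scaled to a common library size) in control replicates 1 to 3, against 4421, 4825 and 4840 in those carrying the PELP1-KD label. The PELP1-KD values lay below the control values by a small margin, at 0.945-fold (edgeR adjusted p = 0.101). The labels thus have little check in the RNA of their target. The paper reports less PELP1 protein in its PELP1-KD Hep3B cells by Western blot, a measure that these libraries do not hold. The liver label was met by its markers: all 8 hepatocyte and liver tumour markers were measured, with a summed level of 10081 to 10317 RPKM (reads per kilobase of exon, scaled to 1000000 reads in the library) in control and 9274 to 9464 RPKM in PELP1-KD libraries. At an edgeR adjusted p below 0.05, 2 of the 8 were higher and 6 lower. Over all 14537 tested genes, 26.8% were higher and 26.8% lower. Albumin (ALB) fell by 0.61 and alpha-fetoprotein (AFP) rose by 0.62 on the log2 scale.

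Promoters of 5 of the 8 genes were in the RefSeq promoter table (GRCh38.p14), with 6 promoters in all since IFIT3 has 2 starts. OAS2, OASL and IFIT2 have no entry there. The stretches that hold the ISRE core are shown because it is the sequence through which interferon acts on these genes. Capitals mark each match to the core, GNAANNGAAA on either strand, where N is any base. A match on the opposite strand reads as a run of TTTC. All windows are on the plus strand, end at or before the gene start, and lie at chr10:89327831-89327894 and chr10:89332425-89332503 (IFIT3), chr10:89392497-89392539 (IFIT1), chr10:89414513-89414567 (IFIT5), chr12:112906934-112906961 (OAS1) and chr12:112938321-112938473 (OAS3).
OAS1: tcccttctgaGGAAACGAAAccaacagc
OAS3: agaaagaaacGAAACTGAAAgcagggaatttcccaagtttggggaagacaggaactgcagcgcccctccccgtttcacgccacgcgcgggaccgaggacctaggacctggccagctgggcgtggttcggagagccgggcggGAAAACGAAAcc
IFIT1: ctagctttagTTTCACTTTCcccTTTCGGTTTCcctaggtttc
IFIT3, first start: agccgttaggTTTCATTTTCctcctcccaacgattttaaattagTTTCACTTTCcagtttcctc
IFIT3, second start: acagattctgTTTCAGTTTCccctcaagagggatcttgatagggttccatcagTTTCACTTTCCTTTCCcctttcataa
IFIT5: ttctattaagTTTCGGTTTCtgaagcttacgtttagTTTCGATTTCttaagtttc

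All 6 promoters held the core between 250 bases before and 50 after the start, against 2821 of all 35116 promoters in the table (8.03%). The stricter form GAAANNGAAA, a subset of the core, stood in 5 of the 6 promoters, all but that of OAS1, and in 3.57% of all promoters. In the printed windows, the matches of the IFIT genes were on the minus strand and those of the OAS genes on the plus strand. In the second IFIT3 promoter 2 matches overlap, and IFIT1 and IFIT5 each have a further match across the start that is not printed, which in IFIT1 is on the plus strand. The GAS (gamma-activated site), a sequence of the response to interferon gamma (TTCNNNGAA, its own reverse complement in letters, so both strands give the same place), was found only in the OAS1 promoter among the 6, and in 7.66% of all promoters. Among other interferon-stimulated genes, 37 of 53 promoters held the ISRE core (69.8%). Interferon ligands had it in 7 of 19 promoters (36.8%) and sensors and adaptors in 5 of 15 (33.3%). The JAK, STAT and IRF genes had it in 1 of 15, feedback inhibitors in 1 of 6, genes downstream of the OAS enzymes in 0 of 4 and receptors in 0 of 7. Such small lists cannot be set apart from the 8.03% of all promoters when they hold 0 or 1. A match describes the letters of these windows and is not a measured binding site.

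**Figure D1:**
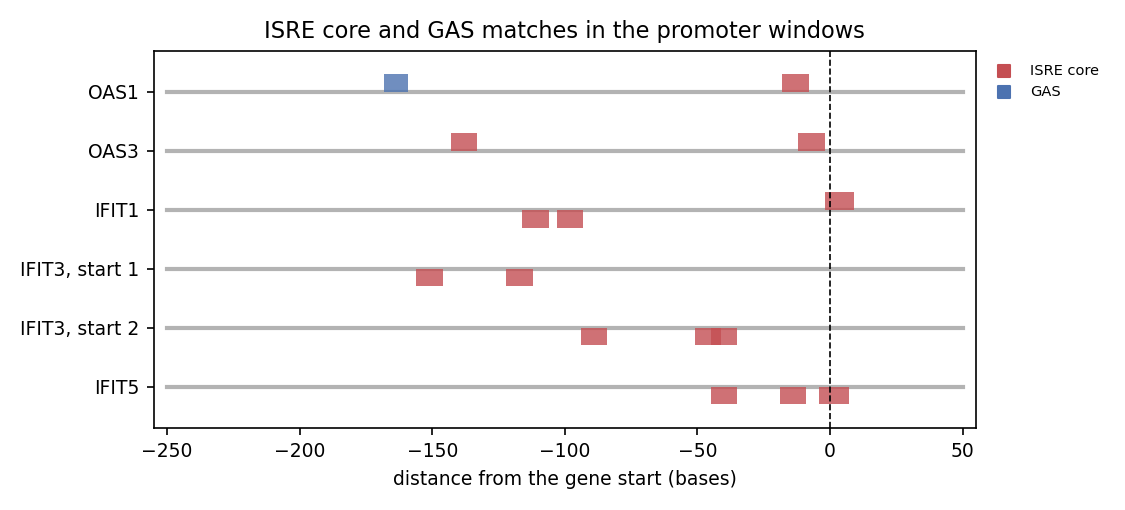
Matches to the ISRE core (red) and the GAS (blue) in the 6 promoters of OAS and IFIT genes in the RefSeq table, by distance in bases from the gene start (dashed line). Boxes above a line are matches on the gene's strand and boxes below it are matches on the other strand. All 6 promoters hold at least 1 ISRE core, and only that of OAS1 holds a GAS.

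OAS1, a small OAS enzyme, lies at chr12:113344739-113357712 (hg19, as are the other gene positions) on the plus strand with 6 exons. It had 139, 128 and 170 normalized reads in control replicates 1 to 3 and 545, 491 and 576 in the PELP1-KD libraries. The lowest PELP1-KD library stood far above the highest control library. The mean went from 146 ± 21.4 to 537 ± 43.0 normalized reads (SD, n = 3), a log2 fold change of 1.88 with a standard error of 0.10, or 3.69-fold.

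OAS3, the long OAS enzyme that responds best to long double-stranded RNA, lies next to OAS1 at chr12:113376249-113411054 with 16 exons. It had 1469, 1434 and 1506 normalized reads in control libraries and 3869, 3821 and 3773 in PELP1-KD libraries. The groups stood apart and the replicates were tight, with means of 1470 ± 36.2 and 3821 ± 47.7 (SD, n = 3). Its log2 fold change was 1.38 with a standard error of 0.04, or 2.60-fold.

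OAS2, the enzyme encoded just beyond OAS3 at chr12:113416274-113449528, was at the edge of detection. It had 0 reads in all 3 control libraries and 5, 3 and 2 reads in PELP1-KD replicates 1 to 3. With the control group set to a floor of 3 reads, the 10 PELP1-KD reads gave a depth-corrected ratio of 3.74. This ratio leaves out the counting error of those 10 reads, so it is no lower bound. The gene did not pass the filter on low reads. Its 2 neighbours in the cluster, OAS1 and OAS3, were read in every library.

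OASL has lost the synthetase activity of its family, carries ubiquitin-like repeats and is known to strengthen signaling by the RNA sensor RIG-I. It lies apart from the others at chr12:121458095-121476780 on the minus strand. It had 1, 1 and 4 reads in control libraries and 8, 1 and 15 in PELP1-KD libraries, so the groups overlapped. In total 6 reads stood against 24, a depth-corrected ratio of 4.49 with a 95% interval of 1.79 to 13.4 that covers counting error only. The spread between the PELP1-KD libraries was wide against their mean, 8.11 ± 6.91 normalized reads (SD, n = 3), and no difference beyond replicate error can be read from this gene.

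IFIT1, which binds capped RNA that lacks a methyl mark of host mRNA, lies at chr10:91152322-91163744 with 2 exons. Its normalized reads were 86.2, 104 and 118 in control libraries and 183, 141 and 167 in PELP1-KD libraries. The groups did not overlap, but the gap between the highest control and the lowest PELP1-KD library was narrow. The mean went from 103 ± 16.1 to 164 ± 21.2 (SD, n = 3), with a log2 fold change of 0.68 and a standard error of 0.14.

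IFIT2 and IFIT3 join IFIT1 in a complex, in which IFIT3 is known to steady IFIT1. IFIT2, at chr10:91061706-91069033, had 29.3, 32.6 and 36.2 normalized reads in control libraries and 87.0, 89.8 and 83.9 in PELP1-KD libraries. Every PELP1-KD library was more than 2-fold above every control library. Its log2 fold change was 1.41 with a standard error of 0.18, the widest error among the 6 genes that passed the filter.

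IFIT3, at chr10:91087602-91100725 with 3 exons, had 263, 268 and 264 normalized reads in control libraries and 722, 702 and 718 in PELP1-KD libraries. Its replicates lay close together, with means of 265 ± 2.77 and 714 ± 10.3 (SD, n = 3). Its log2 fold change was 1.43 with a standard error of 0.07, or 2.69-fold.

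IFIT5, which binds uncapped RNA that ends in triphosphate and works outside the IFIT1 complex, lies at chr10:91174325-91180759. It had 182, 193 and 173 normalized reads in control libraries and 261, 259 and 248 in PELP1-KD libraries, without overlap. Its log2 fold change of 0.49, with a standard error of 0.09, was the smallest of the 6, or 1.40-fold.

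**Figure D2:**
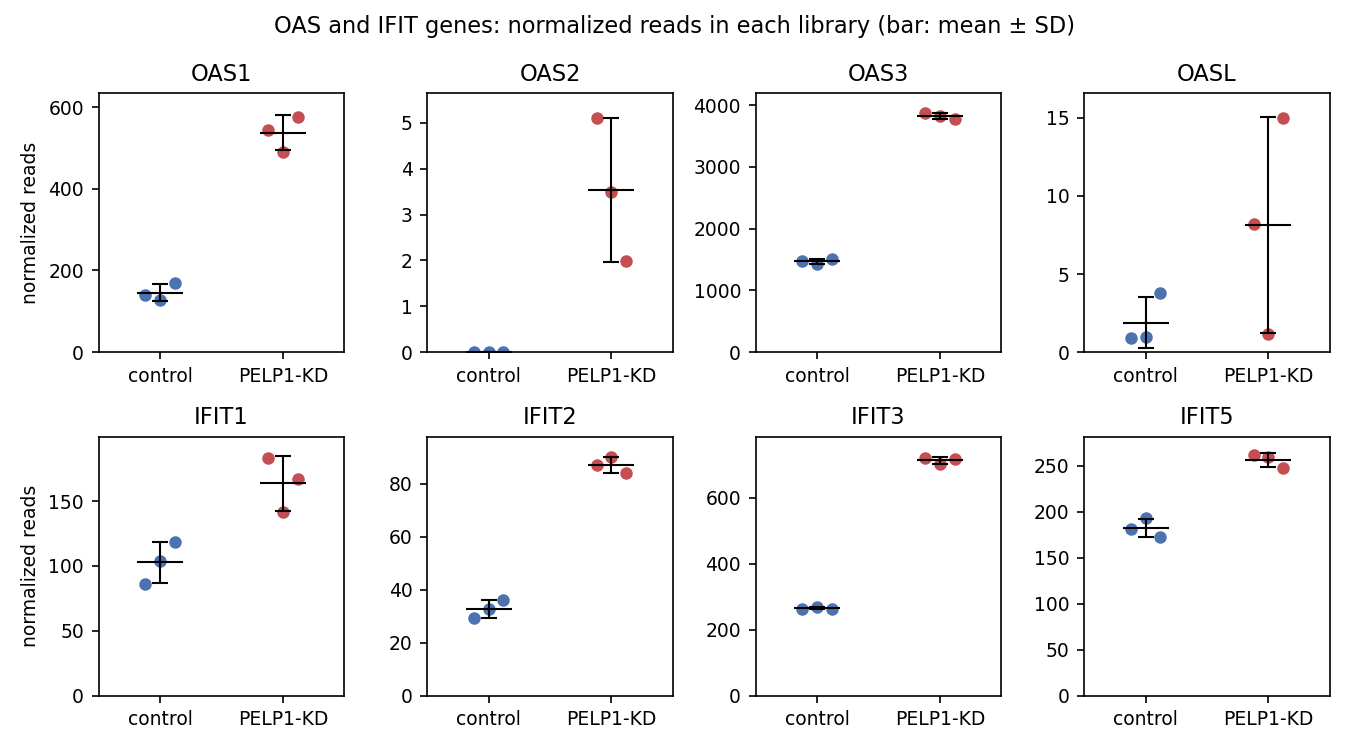
Normalized reads of each OAS and IFIT gene in every library, with control replicates 1 to 3 in blue and PELP1-KD replicates 1 to 3 in red, from left to right, and bars for the mean ± SD (n = 3 libraries per group, linear axes from 0). In 7 panels all red points lie above all blue points, and in the panel of OASL the lowest red point, 1.17, lies below the highest blue point, 3.82.

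In 7 of the 8 genes, all but OASL, the 3 PELP1-KD values lay above the 3 control values. Over all 14537 tested genes, 29.5% did so. The choice of genes used these values, so nothing is read from the count. In RNA from whole cultures, more cells that express a gene and more RNA per expressing cell cannot be told apart. The 4 OAS genes together went from 1618 ± 58.7 to 4370 ± 54.9 normalized reads (SD, n = 3), and the 4 IFIT genes from 583 ± 19.9 to 1221 ± 30.5.

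The size of the difference varied among the 6 genes that passed the filter. OAS1 was highest of them at 3.69-fold, OAS3, IFIT2 and IFIT3 lay between 2.60-fold and 2.69-fold, and IFIT1 and IFIT5, which are neighbours at the end of the IFIT cluster, were at 1.60-fold and 1.40-fold. Replicates of one group differed too. PELP1-KD replicate 1 was above its group mean in 6 of the 6 genes that passed the filter, control replicate 3 in 4 of 6, and control replicate 1 in 0 of 6. The median deviations of these libraries were small, at 0.02, 0.09 and -0.03 on the log2 scale. Some of the counted genes lay almost at the group mean. The share over all tested genes was not computed, so no shift of a library is read from these counts.

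Levels of different genes were compared per exon length, in RPKM. In control libraries OAS3 stood highest at 7.06 ± 0.174 RPKM, followed by IFIT3 at 3.14 ± 0.0328, OAS1 at 2.33 ± 0.343, IFIT1 at 1.76 ± 0.275, IFIT5 at 1.44 ± 0.0790, IFIT2 at 0.298 ± 0.0315, OASL at 0.0332 ± 0.0291 and OAS2 at 0 (SD, n = 3). The ranges of IFIT1 and IFIT5 overlapped, so that these neighbours in the order did not differ beyond their spread. In PELP1-KD libraries the order was OAS3 at 18.3 ± 0.229 RPKM, OAS1 at 8.60 ± 0.688, IFIT3 at 8.45 ± 0.122, IFIT1 at 2.80 ± 0.363, IFIT5 at 2.02 ± 0.0568, IFIT2 at 0.791 ± 0.0271, OASL at 0.142 ± 0.121 and OAS2 at 0.0183 ± 0.00805 (SD, n = 3). There the ranges of OAS1 and IFIT3 overlapped, as did those of OASL and OAS2.

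OAS3 made up 44.0% of the summed RPKM of the 8 genes in control libraries and 44.6% in PELP1-KD libraries. OAS1 held 14.5% ± 1.53 and 20.9% ± 1.20, IFIT1 held 10.9% ± 1.31 and 6.79% ± 0.703, and IFIT5 held 8.98% ± 0.814 and 4.91% ± 0.221 (SD, n = 3). The makeup thus moved toward OAS1 and away from IFIT1 and IFIT5 between the groups, while the share of OAS3 differed by less than its SD.

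**Figure D3:**
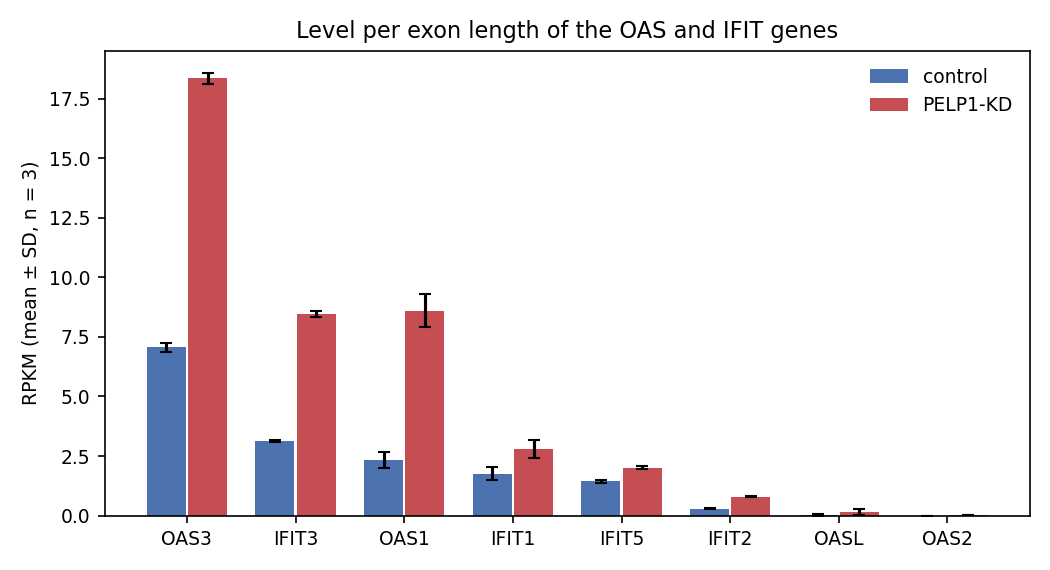
Level of each OAS and IFIT gene in RPKM in control (blue) and PELP1-KD (red) libraries, as mean with SD (n = 3), ordered by the control level. OAS3 is highest in both groups, at 7.06 and 18.3 RPKM, and OAS2 and OASL are below 0.2 RPKM in both.

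The interferon genes around these effectors were read from lists of 112 genes, of which 74 were tested with edgeR across all genes. In all tested genes, 26.8% were higher and 26.8% lower in PELP1-KD libraries at an adjusted p below 0.05, and 2.85% were higher and 4.79% lower by 2-fold or more as well. Among the 74 pathway genes, 46 were higher and 9 lower, 14 of them higher and 1 lower by 2-fold. Their median log2 fold change was 0.31, against 0.00 over all tested genes. These lists were chosen with earlier results of these data known, so the counts are a description and no independent evidence.

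Of the genes downstream of the OAS enzymes, 3 were tested with edgeR and 0 passed in either direction, with 0 also at an unadjusted p below 0.05 and 0 by DESeq2. PDE12 and AKAP7, which degrade the OAS product, had log2 fold changes of -0.13 and 0.12, and ABCE1, a ribosome recycling factor, had 0.06. These values moved with the libraries used: without PELP1-KD replicate 1, PDE12 had -0.19 (edgeR adjusted p = 0.0303) and AKAP7 had -0.01, and without PELP1-KD replicate 3, AKAP7 had 0.24 (0.0246) and ABCE1 had 0.13 (0.00130).

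The ligands were almost unread. Of 21 interferon genes, 17 had 0 reads in all 6 libraries, and the 21 had 14 reads in total. IFNB1, which encodes interferon beta, had 3, 2 and 1 reads in control and 2, 2 and 1 reads in PELP1-KD libraries.

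All 6 interferon receptor genes were tested, and 1 was higher and 2 were lower. IFNAR2, a subunit of the type I receptor, had a log2 fold change of 0.34 (SE 0.05), and its partner IFNAR1 had -0.13 (SE 0.05, edgeR adjusted p = 0.0331). IFNGR2, of the interferon gamma receptor, had -0.31 (SE 0.05). IFNGR1, IL28RA and IL10RB, at 0.05, 0.08 and -0.04, did not pass the test. The call for IFNAR1 was lost without control replicate 1 (adjusted p = 0.105), control replicate 2 (0.110), PELP1-KD replicate 2 (0.0607) or PELP1-KD replicate 3 (0.145).

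Of 11 JAK, STAT and IRF genes, 8 were higher and 1 lower. IRF1, a transcription factor that binds ISREs, went from 1065 ± 17.8 to 2622 ± 97.5 normalized reads (SD, n = 3), a log2 fold change of 1.30 (SE 0.05). STAT2 and IRF9, which act together on the ISRE, were higher by less, with log2 fold changes of 0.44 and 0.62. The kinases JAK2 and JAK1 had 0.70 and 0.46, and the factors IRF2 and IRF3 had 0.26 and 0.20. IRF5 was lower, at -0.97 (SE 0.19), with 67 to 87 reads in control and 33 to 42 in PELP1-KD libraries. IRF7 had 0.34 and did not pass the test, and TYK2 had -0.09, which passed it with the replicate number as a block (adjusted p = 0.0115) and without PELP1-KD replicate 3 (-0.14, 0.00343).

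Of 5 feedback inhibitors, SOCS3 was higher at 0.27 and PIAS1 lower at -0.27 on the log2 scale. SOCS1, an inhibitor of JAK kinases, had 0.24 and did not pass the test. USP18, which blocks signaling at IFNAR2 and can share reads with a close copy in the genome, had 536 and 537 normalized reads in the 2 groups. PTPN2 had 0.11 and did not pass the test. It passed with the replicate number as a block (edgeR adjusted p = 0.0144) and with library size alone (0.13, 0.0321). It also passed without control replicate 1 (0.14, 0.0470) and without PELP1-KD replicate 3 (0.12, 0.0440).

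Of 14 tested sensors and adaptors out of 19, 9 were higher and 1 lower, and 2 were higher by 2-fold. TLR3, an endosomal sensor of double-stranded RNA, went from 39.0 ± 1.80 to 94.2 ± 8.96 normalized reads (SD, n = 3), a log2 fold change of 1.27 (SE 0.17). TLR7, a sensor of single-stranded RNA, went from 17.5 ± 3.98 to 45.4 ± 12.6, at 1.37 (SE 0.27). The lower gene, named after its values were seen, was TICAM1, at -0.77 (SE 0.06).

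Of 46 other interferon-stimulated genes, 35 were tested, with 27 higher and 4 lower, 11 of them higher and 1 lower by 2-fold. UBE2L6, an enzyme that attaches ISG15 to proteins, went from 2935 ± 65.2 to 6188 ± 254 normalized reads (SD, n = 3), a log2 fold change of 1.08 (SE 0.04). PARP14 had 1.12 (SE 0.05) and the GTPase gene GBP1 had 1.53 (SE 0.07). IFITM2, which keeps viruses from fusing with the cell, was the gene lower by 2-fold, from 752 ± 52.4 to 309 ± 22.8 normalized reads, at -1.28 (SE 0.08). Chosen after their values were seen, the antiviral GTPase gene MX1 had 1.11, ISG15 had 0.80, and the relatives of IFITM2 had -0.95 (IFITM1) and -0.65 (IFITM3). The IFITM genes are close in sequence, and reads may be split among them.

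Some genes of this list were near absent, as OAS2 and OASL were. IFI44L had 0 reads in all libraries, and IFI44 and RSAD2, also chosen after their values were seen, had means of at most 1.02 and 1.84 normalized reads in either group.

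**Figure D4:**
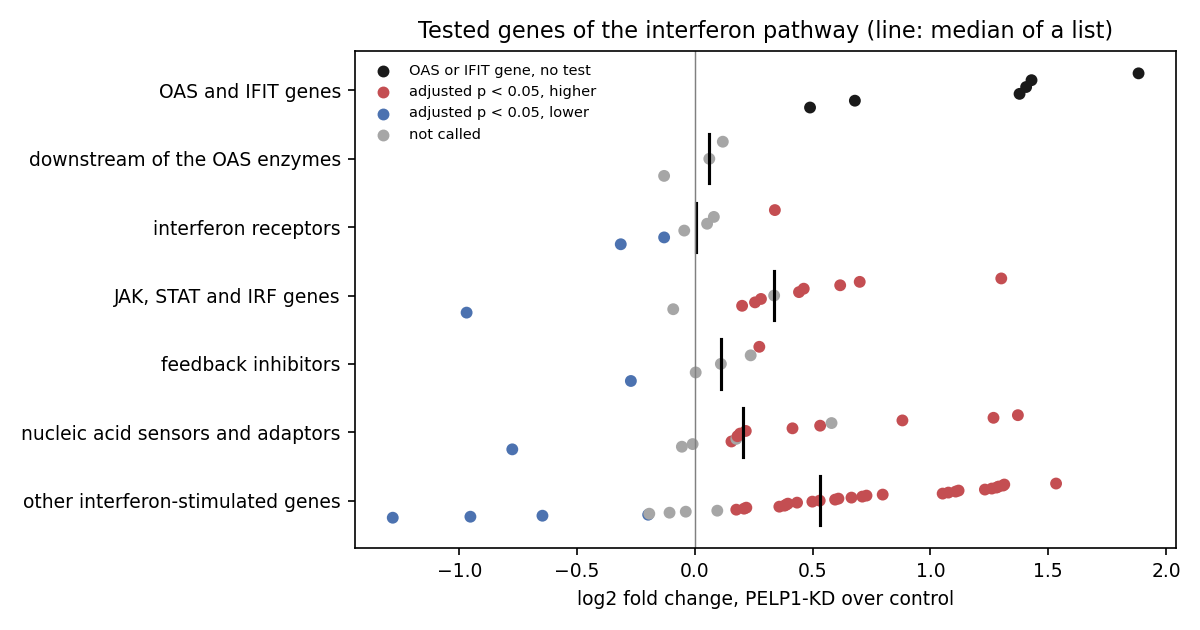
Log2 fold change of PELP1-KD over control for the OAS and IFIT genes that passed the filter (black, no test) and for the tested genes of each interferon list, coloured by the edgeR call, with a line at each list's median. The medians run from 0.00 for the receptors to 0.53 for the other interferon-stimulated genes, and blue points mark the lower calls, of which IFITM2 at -1.28 lies farthest left.

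The genes around the loci were taken as the 5 nearest tested genes on each side. They reached out to 798 kb from the OAS cluster and 1451 kb from the IFIT cluster. The cluster of OAS1, OAS3 and OAS2 spans 105 kb, and that of the IFIT genes 119 kb. Of the 30 neighbours, 11 were higher and 5 lower, and 0 were higher or lower by 2-fold. With the replicate number as a block, 8 were lower. Over all tested genes, 26.8% were higher and 26.8% lower, and 2.85% were higher and 4.79% lower by 2-fold. Around the OAS cluster 6 of 10 were higher and 0 lower, around OASL 1 was higher and 5 lower, and around the IFIT cluster 4 were higher and 0 lower.

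Examples, chosen after their values were seen, show how these compare with the effectors. SLC24A6, 287 kb beyond the OAS cluster, had a log2 fold change of 0.92 (SE 0.05) and STAMBPL1, 378 kb before the IFIT cluster, had 0.74 (SE 0.07). RPL6, PTPN11 and DDX54, at 497, 397 and 145 kb from the OAS cluster, had 0.06, -0.03 and 0.07. LIPA and SLC16A12, the nearest on each side of the IFIT cluster, had -0.11 and -0.36. These 5 genes did not pass the test.

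**Figure D5:**
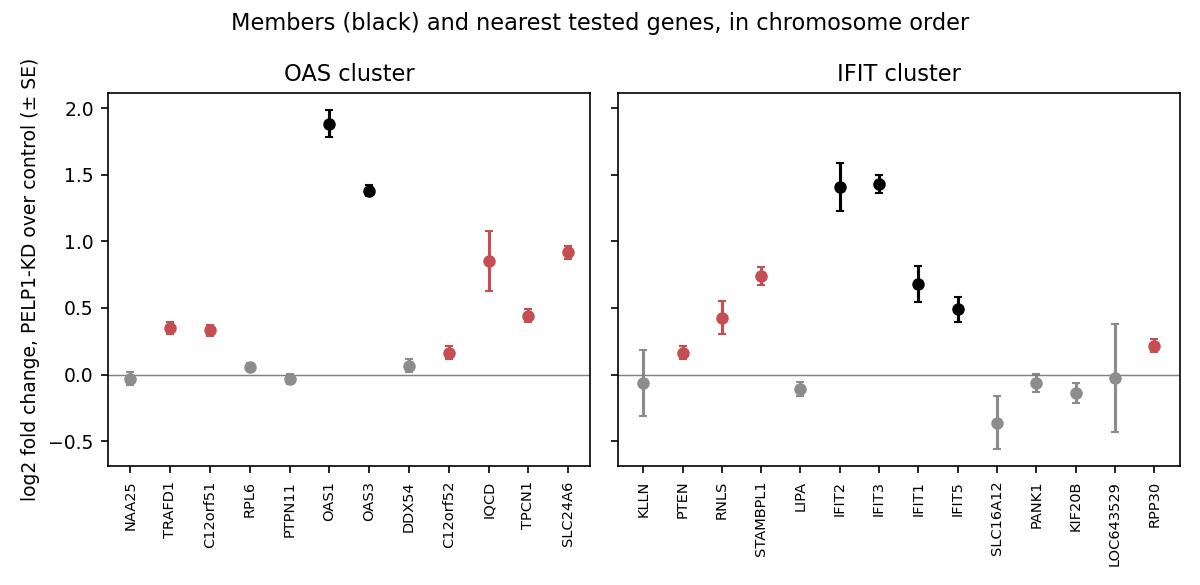
Log2 fold change of PELP1-KD over control with its SE at the OAS and IFIT clusters, for the OAS and IFIT genes that passed the filter (black, no test) and the 5 nearest tested genes on each side, in chromosome order and not to scale. Red points are neighbours called higher by edgeR, and grey points are not called. The highest neighbour, SLC24A6 at 0.92, lies below OAS1, OAS3, IFIT2 and IFIT3 and above IFIT1 and IFIT5.

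The genes whose log2 CPM (reads scaled to 1000000 in the library) followed the mean of the OAS and IFIT genes most closely over the 6 libraries, among 11764 genes with at least 100 normalized reads on average, were PCDH7, CDCP1, CYP4F12, PA2G4 and PRSS12. Their Pearson correlation lay between 0.9989 and 0.9998. These 6 points form 2 groups and share library depth, and 349 genes had a correlation of at least 0.99, so the measure does not set these 5 apart. Their log2 fold changes ran from 0.06 for PA2G4, a gene that did not pass the test, through 0.63, 1.10 and 1.38 for CYP4F12, PCDH7 and PRSS12, to 2.88 for CDCP1.

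Markers of other cell types were read beside the effectors. Of 8 leukocyte markers 3 were tested, 0 higher and 2 lower, with a summed level of 89.3 to 94.9 RPKM in control and 31.8 to 33.2 RPKM in PELP1-KD libraries, nearly all from LYZ. PTPRC, the marker common to leukocytes, had 0 to 5 reads in a library and the T cell marker CD3E 0 to 2. CD14 had 163 to 211 reads in control and 78 to 88 in PELP1-KD libraries, a log2 fold change of -0.98, and ITGAM had 17 to 40 reads in a library. Of 6 fibroblast markers 4 were tested, 2 higher and 2 lower, and THY1 was at 0. LUM and COL1A2 were higher, with log2 fold changes of 0.92 and 0.51. PDGFRA and PDGFRB were lower, with -0.96 and -2.13. The summed level, mostly from LUM and COL1A2, was 10.5 to 11.5 RPKM in control and 16.4 to 16.7 RPKM in PELP1-KD libraries. Of 5 endothelial markers 1 was tested and passed in neither direction, at 0.450 to 0.510 RPKM against 0.434 to 0.479, with CDH5, KDR and TEK at 0. The part of the leukocyte and fibroblast markers in the values of the OAS and IFIT genes was not tested.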

How the data were processed

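RNA-seq of Hep3B cells comprised 3 control and 3 PELP1-KD libraries, grouped by their labels. The authors deposited, for each library, a table of estimated counts per gene without normalization. By the file headers these came from featureCounts v1.5.0-p1, run strand-aware at a mapping quality of 2 or more, with reads of several places or genes shared as fractions. The submitters' processing notes name bcl2fastq, HISAT2, SAMtools, featureCounts and hg19, while the study's methods name TopHat2 and HTSeq. The sample labels give TRIzol and a kit that removes ribosomal RNA, while the study's methods name an RNeasy kit for the extraction and the series' design text a kit that selects mRNA. Among the 48 values of the OAS and IFIT genes, 1 was not whole, and 0 genes share exon bases with them.

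Counts were rounded. The depth was 26758363 to 34456542 reads per library, and 14537 of 23228 genes passed edgeR's filterByExpr. Fold changes and calls come from edgeR 4.0.16 (TMM, glmQLFit with robust estimation, glmQLFTest, R 4.3.3), p-values adjusted over all tested genes by Benjamini-Hochberg, an adjusted p below 0.05 and, where stated, a 2-fold change. The median standard error of a log2 fold change was 0.06. Normalized reads are divided by the TMM-scaled library size, and RPKM uses the tables' exon length. A group total of 0 reads was replaced by a floor of 3 reads, and counting intervals are exact binomial at 95%.

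The OAS and IFIT genes and all gene lists were chosen with earlier results of these data known. Named were these genes, PELP1, genes downstream of the OAS enzymes, genes of the receptor, JAK, STAT and IRF, and feedback lists, of the other lists up to 3 genes in each direction with the smallest p past both thresholds, the neighbours past both thresholds, and the 5 genes most like the OAS and IFIT genes in pattern. Others are marked as chosen after their values were seen, and cell type markers served as a check. A few genes of these lists are not reported here.

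Same-numbered replicates deviated together, with correlations of 0.336, 0.247 and 0.666 over 6370 genes. Control replicate 1 also went with PELP1-KD replicate 2 (0.244), and control replicate 2 went more closely with PELP1-KD replicate 1 (0.418). Replicate 3 of one group against replicates 1 and 2 of the other gave -0.569 to -0.372. These values set replicate 3 apart and do not show pairs by number for replicates 1 and 2. The numbers were treated as pairs only in the alternative with a replicate block. Replicates of a group differed by more than sampling noise (chi-square per degree of freedom 1.94 to 7.02). The fit was tested on simulated data. Alternatives were other normalizations, filters and thresholds, DESeq2 1.42.0, the replicate block, and leaving out each library.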

Additional observations from a re-analysis of the deposited data

How the results depend on the processing

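The log2 fold changes of the OAS and IFIT genes were positive under every alternative tried. They ranged from 1.80 to 2.01 for OAS1, 1.36 to 1.40 for OAS3, 0.57 to 0.80 for IFIT1, 1.33 to 1.49 for IFIT2, 1.42 to 1.45 for IFIT3 and 0.46 to 0.53 for IFIT5, and since the genes were chosen on these values this range is no support. Counts of higher calls among the pathway genes ranged from 43 to 50, of lower calls from 7 to 10, and of genes higher by 2-fold from 11 to 17. The number tested varied too, from the 74 of the main fit. The lows of 43 and 11 came with 66 genes tested, at a mean of at least 1 RPKM. The 17 came with 92 tested, without a filter, and the 50 with 76 tested, without PELP1-KD replicate 3. With 1 library left out, the number lower by 2-fold was 1 to 2. The replicate block raised the number of lower neighbours to 8 from 5, and added TYK2 and PTPN2 (given above), DDX58 (log2 fold change 0.18, edgeR adjusted p = 0.0486) and LGALS3BP (0.09, 0.0167) as calls. Among the pathway genes it changed no other call. With library size alone, the lower calls of IFNAR1 (0.0689) and CXCL10 (0.0532) were lost, and PTPN2 (0.0321) and LGALS3BP (0.0433) were added. DESeq2 lost the call of EIF2AK2 (0.0871). Leaving out single libraries also took away calls of CXCL10, EIF2AK2 and PLSCR1 and added calls of DDX58 and LGALS3BP. In CPM, which does not correct for length, OAS1 and IFIT1 stood lower in the order of levels and IFIT5 higher, and IFIT3 stood above OAS1 in PELP1-KD libraries. OAS2 and OASL are limited by depth, with at most 15 reads in a library. The cause of these changes was not tested.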
